A study of Mus musculus with 18 samples.

Results

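The late interleukin-4 (IL-4) state of macrophages labelled Irf4-/- is described here across all measured genes, from 6 of the 18 arrays of the series. The 6 arrays are those titled Irf4-/- IL4 18h and Irf4-/- Mock, each with the letters A, B and C, and arrays of the same letter were paired. The series measured RNA of mouse bone marrow-derived macrophages on one-colour Agilent arrays, in 6 groups of 3 arrays. Its groups cross 2 genotypes, Irf4-/- and Irf4+/-, with 3 conditions: mock culture and culture with IL-4 over 4 h or 18 h.

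The IL-4 18 h group held Irf4-/- macrophages given 10 ng/ml of IL-4 over 18 h, and the mock group held Irf4-/- macrophages kept over the same 18 h without IL-4. Every culture of both groups was of strain C57BL6/J, came from mice 8 to 12 weeks old and was grown with 200 ng/ml human rCSF1. The labels describe cells pooled from several animals per sample (2 males and 1 female), and letters mark 3 independent experiments with littermates. The 3 Irf4-/- cultures with IL-4 for 4 h and the 6 Irf4+/- cultures (18 h with IL-4 and mock) are used for comparison. No wild-type culture is used here: the other genotype is heterozygous. Both groups of the main comparison carry the same Irf4-/- label, which the study's text describes as deficiency of the mice.

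IL-4 binds a receptor that holds the IL-4 receptor alpha chain, and Janus kinases then phosphorylate the transcription factor STAT6. In macrophages this induces the programme called alternative activation, known for arginase, mannose receptor, chitinase-like proteins and resistin-like molecule alpha. IRF4 is an interferon regulatory factor that IL-4 induces in macrophages and that binds DNA together with other factors, PU.1 among them. It is known as a regulator of alternative activation in several mouse models.

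Signal levels below are log2 of a probe's processed intensity minus that of the array's 75th percentile, so a probe at the 75th percentile reads 0. Between 64.7% and 71.4% of the 43379 non-control spots were well above background on each of the 6 arrays, and the number of arrays limits the precision. One probe represented each gene, 15285 genes were tested, and a gene was called when its adjusted p was under 0.05 in limma with the letter as a block (Benjamini-Hochberg over all genes tested). Changes are log2 differences of IL-4 18 h minus mock with their standard error (SE), unless stated. Groups are said not to overlap where every 18 h level lay on the same side of every mock level. The share of all genes tested without overlap is not given here. Most named genes were picked for large changes or low adjusted p, which favours a lack of overlap. It therefore describes their values and is no further test. The 18 h and mock arrays of letter C lay on different slides, while those of A and of B shared a slide. Irf4-/- arrays of the same letter shared a scan day, so the 18 h and mock arrays of a pair did not differ in it. The block for the letter spans both genotypes, whose arrays of letter A were scanned on different days. It therefore does not fully cover the scan day.

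The targeted gene was read first. Irf4 gave signal levels of 2.14, 1.17 and 1.25 in the IL-4 18 h cultures A, B and C labelled Irf4-/-, of 2.10, 1.5 and 1.57 at 4 h, and of -0.97, -0.53 and -0.81 in mock. In Irf4+/- cultures it read 1.75, 1.24 and 0.81 after 18 h of IL-4 and -1.16, -0.36 and -1.80 in mock. Its single probe rose by 2.29 ± 0.30 in Irf4-/- (adjusted p = 0.000227, limma) and by 2.38 in Irf4+/-; the genotypes differed by -0.08 with a 95% interval of -1.01 to 0.85. The Irf4 signal therefore does not tell the genotypes apart, and every statement on genotype below rests on the labels. No source used here states which stretch of Irf4 was removed or whether the probe falls in it, and a probe outside the removed stretch checks nothing.

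After 18 h of IL-4, 2845 of the 15285 genes tested (18.6%) differed from mock in Irf4-/- macrophages: 1815 rose (11.9% of genes tested) and 1030 fell (6.74%). By their fitted change 515 of the 1815 rises and 427 of the 1030 falls were at least 2-fold, a larger share of the falls. At least 8-fold changes were mostly rises, with 79 genes up and 20 down. In 2843 of the 2845 called genes all 3 pairs moved the same way. The median gene tested stood 0.12 higher at 18 h (0.12 in pair A, 0.13 in B and 0.10 in C), so the list medians below are to be read against 0.12. List counts below are to be read against the 11.9% of all genes tested that rose and the 6.74% that fell. Counts of members higher at 18 h are to be read against 63.2% of all genes tested. Of the calls, 63.8% were rises, but 50.2% were with arrays scaled to their median and 52.9% after quantile normalization. Without the letter as a block 552 genes (3.61%) were called, all of them also called with it. In bulk cultures, fewer cells of a type and less RNA per cell cannot be told apart.

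**Figure D1:**
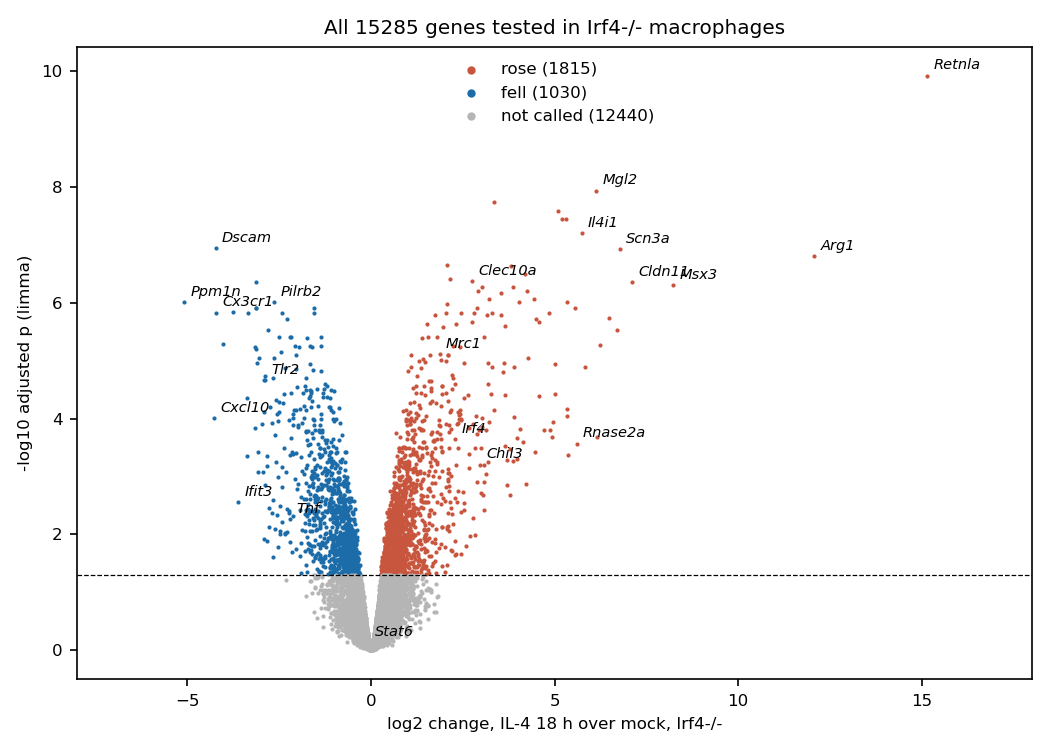
Each point is 1 of the 15285 genes tested in Irf4-/- macrophages; the x axis is the log2 change of IL-4 18 h over mock, the y axis is -log10 of limma's adjusted p, and the dashed line marks an adjusted p of 0.05. The 1815 genes that rose reach farther from 0 than the 1030 that fell, with Retnla and Arg1 farthest to the right and Ppm1n farthest to the left.

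Most genes listed as an IL-4 signature, known markers of alternative activation and others, were higher at 18 h in cultures labelled Irf4-/-. Of 39 genes listed as an IL-4 signature 37 were tested (Ccl22 did not pass the filter and Ear2 had no probe), 29 rose and none fell. Their median change was 3.00, with 2.76, 2.36 and 3.29 in pairs A, B and C, and 33 of the 37 were higher at 18 h. Without the letter block 25 of them rose. The list was chosen with earlier results of these data known, so its counts and median describe the list and are no test.

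Retnla, which encodes the secreted resistin-like molecule alpha, read 7.30, 5.58 and 6.72 in IL-4 18 h cultures A, B and C, against -8.35, -8.29 and -9.20 in mock. Mock arrays were all not well above background for Retnla, so the rise is a bound of at least 9540-fold (adjusted p = 1.22e-10). The same bound for Arg1, the arginase that splits arginine into ornithine and urea, was at least 1990-fold (adjusted p = 1.56e-07), with levels of 4.61, 3.27 and 4.94 at 18 h, against -8.54, -6.89 and -7.96 in mock. Both genes were far apart between the groups in every pair. Such bounds set the 18 h mean against the lowest signal among probes well above background on each mock array, or the gene's own signal where that was higher. A gene was counted as well above background on an array when any of its probes was.

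The galactose-binding lectin Mgl2 read 4.78, 4.88 and 5.14 at 18 h, against -1.48, -1.44 and -0.68 in mock, a rise of 6.13 ± 0.23 (adjusted p = 1.17e-08). Its relative Clec10a read 6.95, 6.92 and 6.98, against 4.69, 3.86 and 4.03 in mock, and Mrc1, the mannose receptor, read 6.15, 6.50 and 6.75, against 4.50, 4.44 and 4.86 in mock. None of these 3 lectins overlapped between the groups, and Clec10a and Mrc1 rose by 2.76 and 1.87. Chil3, the chitinase-like protein Ym1, behaved less evenly: it read 6.51, 2.98 and 4.79 at 18 h, against 3.19, 1.14 and 1.07 in mock. The 18 h culture B lay below the mock culture A, although each culture was above the mock of its own letter. Chil3 rose by 2.96 ± 0.45 (adjusted p = 0.000624), and its adjusted p was 0.164 without the block.

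Pdcd1lg2, which encodes the PD-1 ligand PD-L2, read -0.12, -1.62 and -0.12 at 18 h, against -6.73, -6.69 and -7.18 in mock. The eosinophil-attracting chemokine Ccl24 read 1.26, -1.81 and -0.31, against -4.53, -5.02 and -4.70 in mock, and Cdh1 (E-cadherin, an adhesion protein used in macrophage fusion) read 1.55, -0.95 and 0.45, against -4.08, -5.60 and -5.31 in mock. The groups did not overlap for any of these, and for all 3 the 18 h culture B was the lowest. Pdcd1lg2 rose by 6.24 ± 0.52, Ccl24 by 4.47 ± 0.63 and Cdh1 by 5.35 ± 0.36 (adjusted p = 5.32e-06, 0.000383 and 9.84e-07). The mock levels of Pdcd1lg2 were close to that of Arg1 in mock B, which was not well above background. The size of the Pdcd1lg2 rise is therefore uncertain. Rises also passed for the arginine transporter Slc7a2 (5.20), the VEGF receptor Flt1 (5.31, and 2.03 by another probe) and the nuclear receptor Pparg (1.01).

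Of the signature, 8 members were not called. Alox15, a lipoxygenase strongly induced by IL-4 in human monocytes, was well above background on no 18 h array and on 2 of 3 mock arrays, a level at least 2.06-fold lower at 18 h (adjusted p = 0.0613). Ccl17 changed by 0.45 (adjusted p = 0.27), Myc by 0.97 (adjusted p = 0.244) and Il4ra by -0.32 (adjusted p = 0.392). The other uncalled members were Il1rn, Tgm2, Ch25h and Mmp12. They are named after their values were seen.

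Promoter sequence is shown for 3 of the risen genes because a 10-base palindrome of the kind that STAT factors bind was found in each. The motif searched was TTCNNNNGAA, which reads the same on both strands, in the window from 250 bases before to 50 bases after each start site in RefSeq's annotation of GRCm38.p6. A window was found for 11692 genes tested, 2253 of them with over 1 window. The capitals mark the motif with 60 bases on each side. Retnla is shown from chr16:48842404-48842533 (+ strand, motif starting 145 bases before the start site), Pdcd1lg2 from chr19:29410777-29410906 (+ strand, 82 bases before) and Rbp4, the retinol carrier described below, from chr19:38125372-38125501 (- strand, 120 bases before).
Retnla: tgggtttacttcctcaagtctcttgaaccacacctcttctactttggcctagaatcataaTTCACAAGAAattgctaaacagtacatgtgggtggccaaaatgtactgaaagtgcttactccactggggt
Pdcd1lg2: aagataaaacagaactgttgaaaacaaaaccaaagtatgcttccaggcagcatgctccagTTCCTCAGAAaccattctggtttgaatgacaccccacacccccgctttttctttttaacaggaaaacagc
Rbp4: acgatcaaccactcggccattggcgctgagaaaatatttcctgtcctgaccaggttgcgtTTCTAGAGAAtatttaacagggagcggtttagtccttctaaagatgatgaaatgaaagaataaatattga
The motif was present for 9 of 60 genes with a window that rose at least 8-fold (15%), 35 of 397 that rose at least 2-fold (8.82%), 6 of 25 signature genes (24%) and 787 of all 11692 genes tested (6.73%). Among falls, 23 of 312 genes that fell at least 2-fold held it (7.37%), as did 6 of 22 interferon-stimulated genes that fell (27.3%). Of all 32851 promoter windows 6.95% held it. A match is a description of these letters and was not tested as a binding site.

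**Figure D2:**
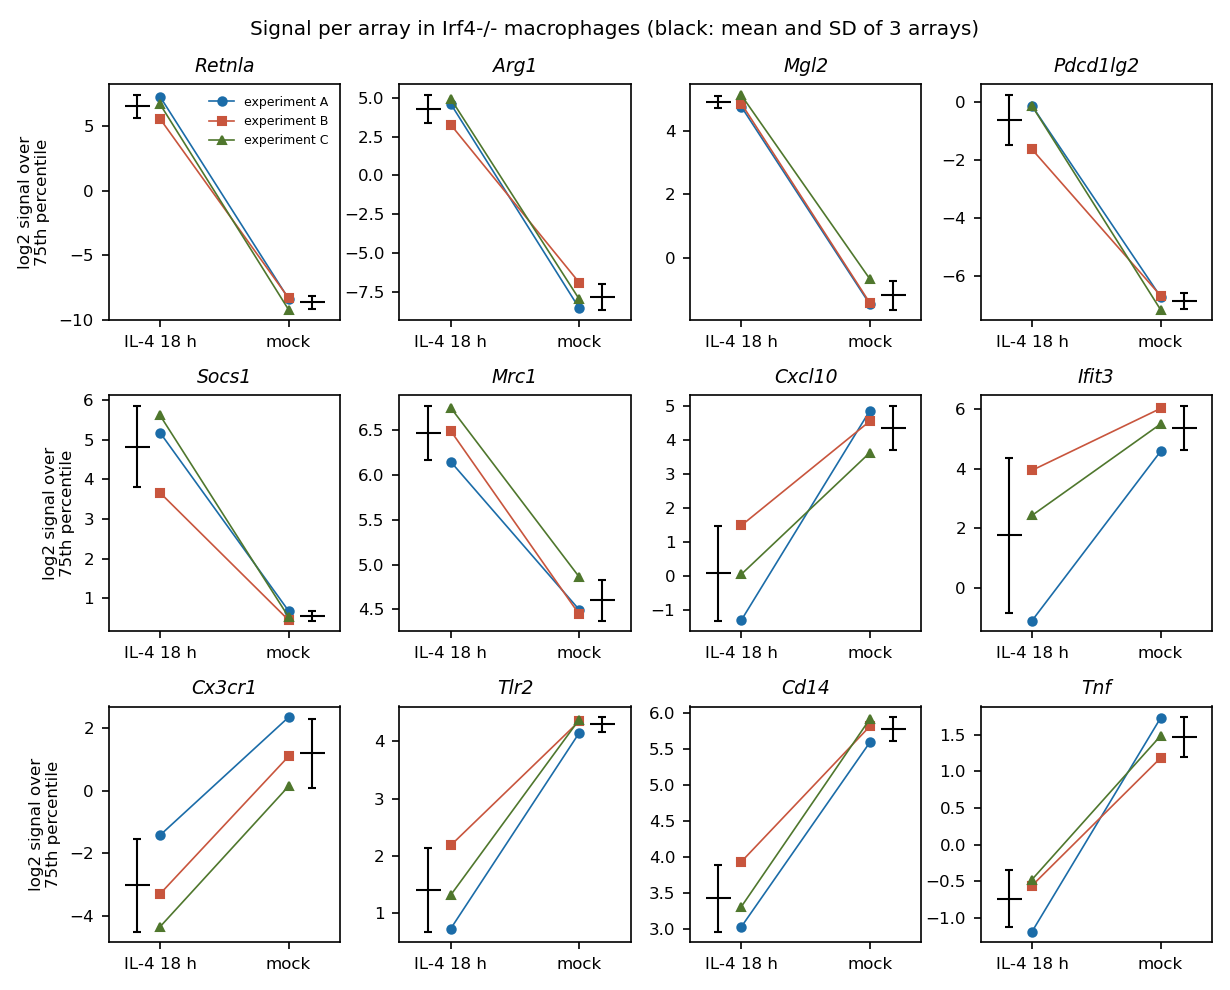
Each panel is 1 gene in Irf4-/- macrophages; the y axis is the log2 signal over the array's 75th percentile, each line joins the IL-4 18 h and mock cultures of 1 letter, and the black bars give the mean and SD of 3 arrays. Retnla, Arg1, Mgl2, Pdcd1lg2, Socs1 and Mrc1 lie higher at 18 h in every pair, and Cxcl10, Ifit3, Cx3cr1, Tlr2, Cd14 and Tnf lie lower.

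The eosinophil-associated ribonucleases, small secreted RNases that macrophages make in alternative activation, also rose. Of 10 listed 7 were tested, 6 rose and Rnase6, named after its value was seen, fell (-0.71), with a median change of 4.92. Rnase2a read 4.95, -0.50 and 0.33 at 18 h, against -2.83, -4.47 and -4.73 in mock. Ear1 read 0.53, -2.89 and -2.34, against -6.10, -7.34 and -6.30 in mock. In both genes culture A stood well above B and C at 18 h, and the groups did not overlap. Rnase2a rose by 5.60 ± 0.76 (adjusted p = 0.000271, and 0.115 without the block) and Ear1 by 5.01 ± 0.53 (adjusted p = 3.85e-05). Rnase2a, Ear1, Ear6 and Ear10 are near-identical copies, so which of them gave the signal is uncertain, and Ear6 rose by 4.92 by the probe used and by 3.05 by another.

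Among the 15 largest rises, several genes had no place in the signature list. Msx3, a homeobox gene known from the developing nervous system, read 0.51, -0.32 and 0.58 at 18 h, against -6.97, -8.44 and -8.50 in mock, a rise of at least 123-fold (adjusted p = 4.93e-07). The tight junction gene Cldn11 read 2.12, 0.59 and 0.14, against -6.43, -5.70 and -6.35 in mock. A pair of sodium channel alpha subunits were also high at 18 h: Scn3a read -0.81, -2.52 and -1.97, against -8.34, -8.17 and -9.10 in mock (at least 30.2-fold, adjusted p = 1.19e-07), and Scn1a rose at least 29.7-fold. The groups lay far apart for each of these genes, of which Cldn11 was well above background on 2 of 3 mock arrays. Il4i1, a secreted amino acid oxidase, read 4.98, 2.58 and 3.37 at 18 h, against -0.69, -2.68 and -2.90 in mock, and rose by 5.73 ± 0.28 (adjusted p = 6.35e-08). The retinol carrier Rbp4, whose promoter is printed above, read -0.31, -2.62 and -0.94, against -4.68, -8.002 and -8.65 in mock, and rose by 5.82 ± 0.54 (adjusted p = 1.28e-05), with 1 of 3 mock arrays well above background. The remaining genes of the 15 were Mboat2 (6.47), an acyltransferase of lysophospholipids, Tmem26 (5.55) and Edn1, the endothelin precursor, which rose at least 31.5-fold.

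Of the IL-4 receptor and JAK-STAT genes, the feedback inhibitors Socs1 and Cish were far above mock. Socs1 read 5.18, 3.66 and 5.62 at 18 h, against 0.68, 0.45 and 0.53 in mock, and Cish read 4.21, 0.99 and 3.42, against -3.67, -3.24 and -2.92 in mock. Both encode inhibitors of cytokine signalling, and neither overlapped between the groups. Socs1 rose by 4.27 ± 0.38 (adjusted p = 9.06e-06) and Cish by 6.15 ± 0.81 (adjusted p = 0.000205). The IL-13 receptor chain Il13ra1 read -3.78, -3.16 and -3.64, against -1.40, -1.67 and -2.04 in mock, and fell by 1.82. Stat6 read 2.71, 2.74 and 2.67, against 2.80, 2.87 and 2.60 in mock, overlapped and was not called (-0.06, adjusted p = 0.733). Of the 21 list members tested 4 rose, Jak2 among them (0.93), and 5 fell; 3 rose and 1 fell without the block.

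Transcription factors of the AP-1, BATF and EGR families moved upward: 7 of 18 tested rose, none fell, and the median was 0.66. Egr2, an early growth response factor, read 5.42, 5.49 and 6.01 at 18 h, against 2.29, 0.69 and 1.39 in mock, without overlap, and rose by 4.19 ± 0.24 (adjusted p = 3.23e-07). Batf3 rose by 3.21, Fosl2 by 2.13 (1.36 by another probe) and Egr1 by 1.43. Of the 9 interferon regulatory factors, Irf4 and Irf2 (0.48) rose and Irf9 (-0.55) fell. The median of this family, 0.15, was -0.03 after quantile normalization.

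Inflammatory cytokines and chemokines were mostly lower. Of 22 listed 15 were tested, 10 fell and 2 rose, with a median of -1.32. Without the block 4 fell and none rose, and 6 fell without letter A or without letter C. The T cell attractant Cxcl10 read -1.31, 1.48 and 0.04 in IL-4 18 h cultures A, B and C, against 4.87, 4.56 and 3.63 in mock. Cxcl9 read -7.45, -5.63 and -6.74, against -4.10, -3.70 and -4.24 in mock, and Cxcl11 read -6.87, -6.70 and -8.20, against -3.48, -2.998 and -4.02 in mock. These 3 ligands of the receptor CXCR3 were lower at 18 h with no overlap, and at 18 h Cxcl9 was well above background on 1 of 3 arrays and Cxcl11 on none. Cxcl10 fell by 4.28 ± 0.51 (adjusted p = 9.80e-05), Cxcl9 fell by 2.59 ± 0.39 (adjusted p = 0.000565), and Cxcl11 was at least 8.7-fold lower (adjusted p = 1.47e-06).

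Tnf, the tumour necrosis factor gene, read -1.19, -0.56 and -0.48 at 18 h, against 1.73, 1.18 and 1.49 in mock. The groups did not overlap, and Tnf fell by 2.21 ± 0.46 (adjusted p = 0.00542, and 0.0524 without the block). The chemokine Ccl4 fell by 1.46 (adjusted p = 0.00109, and 0.0772 without the block). The other falls of this list, named after their values were seen, were Cxcl1 (-2.91), Cxcl2 (-2.84), Ccl5 (-1.32), Ccl3 (-1.08) and Il18 (-1.01). The 2 rises, named in the same way, were Ccl7 (3.08), a monocyte attractant, and Il12a (1.20). Il1a, Il6, Il12b, Il23a, Cxcl3, Nos2 and Ptgs2 were not well above background on all 3 arrays of any group and were not tested.

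The interferon-stimulated genes, antiviral and GTPase genes that answer to interferon receptors, stood lower as a group. All 40 tested members were lower at 18 h (39 with normexp background correction), 30 fell and none rose, against 6.74% of all genes tested, and the median was -1.39. Pair A had the deepest median, -2.31, with -0.82 in B and -0.97 in C, and A and B each lay on 1 slide. The call depends on the block: 5 members fell without it. Without the 18 h culture A 19 fell (median -0.99) and without its mock 19 fell (-1.26), 20 fell without letter B, and 9 without letter C. With the 6 arrays alone in the fit 17 fell.

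Ifit3 read -1.11, 3.94 and 2.42 in IL-4 18 h cultures A, B and C, against 4.58, 6.02 and 5.50 in mock. The antiviral genes Rsad2 (viperin) and Mx2 read -0.60, 3.18 and 1.89 and -1.18, 1.53 and 0.28 at 18 h, against 4.02, 4.87 and 4.27 and 2.42, 2.99 and 2.53 in mock. Isg20, an exonuclease gene, read -1.71, 1.36 and 0.16, against 2.52, 3.46 and 2.68 in mock. None of the 4 overlapped between the groups, and for all 4 culture A was the lowest at 18 h. Ifit3 fell by 3.61 ± 0.68 (adjusted p = 0.00277, and 0.0894 without the block), and Rsad2 fell by 2.90 ± 0.49 (adjusted p = 0.00139, and 0.0676 without the block). Mx2 fell by 2.44 ± 0.37 (adjusted p = 0.000689) and Isg20 fell by 2.95 ± 0.47 (adjusted p = 0.000843). Smaller changes were measured for Irf9 (-0.55), which fell, and for Irf7 (-1.01, adjusted p = 0.175), which was not called and is named after its value was seen.

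Promoter sequence of 3 lowered genes is shown for the repeat GAAANNGAAA, the kind of element that interferon regulatory factors bind. The motif was searched as GAAANNGAAA and as TTTCNNTTTC for the other strand, and capitals mark it with up to 60 bases on each side. Cxcl10 is shown from chr5:92349033-92349139 (- strand, motif starting 213 bases before the start site), Ifit3 from chr19:34583313-34583476 (+ strand, 2 motifs, the first starting 156 bases before) and Rsad2 from chr12:26456503-26456632 (- strand, 120 bases before).
Cxcl10: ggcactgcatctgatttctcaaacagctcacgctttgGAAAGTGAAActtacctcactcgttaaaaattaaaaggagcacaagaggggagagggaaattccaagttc
Ifit3: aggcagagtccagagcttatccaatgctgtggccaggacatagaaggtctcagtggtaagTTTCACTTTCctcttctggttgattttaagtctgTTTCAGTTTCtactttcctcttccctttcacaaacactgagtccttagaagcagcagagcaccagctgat
Rsad2: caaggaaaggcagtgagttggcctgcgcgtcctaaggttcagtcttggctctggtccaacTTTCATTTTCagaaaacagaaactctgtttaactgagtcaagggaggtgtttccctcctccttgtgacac
Of the 22 interferon-stimulated genes that fell and had a window, 14 held this motif (63.6%), against 44 of 312 genes that fell at least 2-fold (14.1%), 12 of 397 that rose at least 2-fold (3.02%) and 440 of all 11692 genes tested (3.76%). Of all promoter windows 3.44% held it, and it overlapped the palindrome TTCNNNNGAA in 18 windows. The list was put together from genes known to answer to interferon, so the share describes the list.

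Receptors for chemokines and other attractants were lowered more often than raised: of 20 tested 9 fell and 3 rose (4 and 2 without the block), with a median of -0.54. Cx3cr1, the fractalkine receptor, read -1.43, -3.31 and -4.36 at 18 h, against 2.35, 1.10 and 0.14 in mock. The formyl peptide receptor Fpr2 read -3.92, -5.33 and -5.49, against -0.89, -1.91 and -2.56 in mock, and Cxcr3, the receptor of the 3 ligands above, read -0.11, 1.24 and 1.06, against 1.82, 2.56 and 2.81 in mock. All 3 were lower without overlap. Cx3cr1 fell by 4.23 ± 0.30 (adjusted p = 1.49e-06, with -2.61 by another probe), Fpr2 fell by 3.13 ± 0.22 (adjusted p = 1.25e-06, with -2.07 by another probe) and Cxcr3 fell by 1.67 ± 0.17 (adjusted p = 3.18e-05). Ltb4r1, the leukotriene B4 receptor, went the other way: it read 2.93, 1.84 and 3.08 at 18 h, against 0.43, -0.25 and -0.20 in mock, and rose by 2.63 ± 0.28 (adjusted p = 3.88e-05). Gpr84, a receptor of medium-chain fatty acids outside the list, read -2.997, -3.52 and -4.52, against 1.23, 0.09 and -0.29 in mock, and fell by 4.02 ± 0.34 (adjusted p = 5.13e-06).

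Sensors of bacterial products fell in part. Tlr2 read 0.72, 2.18 and 1.31 at 18 h, against 4.15, 4.35 and 4.38 in mock, and its co-receptor Cd14 read 3.03, 3.94 and 3.31, against 5.59, 5.82 and 5.92 in mock. Both were lower in every pair without overlap: Tlr2 fell by 2.89 ± 0.28 (adjusted p = 2.18e-05) and Cd14 fell by 2.35 ± 0.22 (adjusted p = 1.33e-05). The flagellin receptor Tlr5 fell by 1.72. Over the 20 Toll-like receptors and adaptors tested 6 fell and 2 rose (3 and 0 without the block), and the median was 0.07. Of the 15 NF-kB subunits and inhibitors 7 fell and 1 rose (4 and 0 without the block). Nfkbiz, which encodes the nuclear IkB family protein IkB zeta, read -2.25, -1.84 and -2.93, against 0.72, 0.65 and 0.10 in mock. It fell by 2.83 ± 0.41 (adjusted p = 0.000438), while Nfkbia fell by 0.89.

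Fc receptors and paired immunoglobulin-like receptors moved in both directions. Of 19 tested 8 fell and 4 rose (4 and 3 without the block). Pilrb1, an activating paired receptor, read -0.15, -0.80 and -1.09 at 18 h, against 2.69, 2.63 and 2.70 in mock, and fell by 3.35 ± 0.24 (adjusted p = 1.49e-06). Its inhibitory counterpart Pilra fell by 3.06 and Pilrb2 fell by 2.64. These paired receptors are close relatives, and cross-hybridisation between their probes was not tested. Fcgr2b, the inhibitory IgG receptor, read 5.01, 5.52 and 5.64, against 3.02, 3.56 and 3.49 in mock, and rose by 2.04 ± 0.15 (adjusted p = 1.49e-06). The high-affinity IgG receptor Fcgr1 read 3.09, 6.23 and 5.83, against 5.94, 7.27 and 6.89 in mock: culture A was far below B and C at 18 h and the groups overlapped. Fcgr1 fell by 1.65 (adjusted p = 0.0183, and 0.35 without the block). C-type lectins and scavenger receptors had 6 rises and 8 falls among 23 (5 and 2 without the block), the rises including the lectins of the signature and the falls including the efferocytosis receptors Axl (-1.67) and Mertk (-0.90).

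Of 15 class II antigen presentation genes tested 3 rose and 2 fell, with a median of 0.34, where 18.6% of all genes were called. Without the block none rose and 1 fell. Cd74, the class II invariant chain, read 6.22, 5.78 and 5.10 at 18 h, against 5.42, 4.53 and 3.81 in mock. It was higher in every pair and the groups overlapped, and it rose by 1.11 ± 0.17 (adjusted p = 0.000754, and 0.424 without the block). The class II transactivator Ciita rose by 0.81 and H2-DMa by 0.92, and H2-Aa changed by 0.46 (adjusted p = 0.0718). Of 13 class I genes Tap1 fell (-1.11); the median, 0.03, was -0.02 with median scaling and -0.23 after quantile normalization, which called 6 falls. Among 13 costimulators 2 rose, both PD-1 ligands (Pdcd1lg2 and Cd274, named after its value of 1.28 was seen), and 3 fell: Icosl (-1.67), Tnfsf9 (-1.55) and Tnfsf14 (-1.13); 1 rose and 2 fell without the block.

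The mitochondrial respiratory chain was shifted by a small amount. All 35 oxidative phosphorylation genes tested were higher at 18 h, 11 rose and none fell, and the median was 0.40 against 0.12 for all genes. Of all genes tested 63.2% were higher and 11.9% rose. Ndufa4, a subunit of the chain, read 5.35, 4.28 and 4.61, against 4.88, 3.81 and 4.03 in mock, and rose by 0.51 ± 0.11 (adjusted p = 0.00659). It was higher in every pair, but the spread between letters exceeded the change and the groups overlapped. No member rose without the block, with median scaling or with normexp background correction, and 3 did after quantile normalization, with 33 of 35 higher and a median of 0.22. Leaving out letter B or C also left 0 calls, and leaving out letter A, its mock culture or the 18 h culture C left 2, 2 and 1.

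Genes of lipid uptake and fatty acid oxidation had 9 rises and 2 falls among 27, with a median of 0.35. None was called without the block, and 4 rose with median scaling or after quantile normalization. Pparg, the lipid-sensing nuclear receptor, read 2.83, 3.57 and 4.12 at 18 h, against 2.33, 2.42 and 2.73 in mock, and rose by 1.01 ± 0.24 (adjusted p = 0.0128, and 0.0529 without the block). Abcg1, a sterol exporter, rose by 0.99, while Abca1, an exporter of the same kind, read 1.48, 2.83 and 2.08, against 3.70, 3.84 and 3.46 in mock, and fell by 1.54 ± 0.28 (adjusted p = 0.00243, and 0.247 without the block). None of 23 cholesterol synthesis genes was called, by limma, and 1 of 13 fatty acid synthesis genes rose and 1 fell. Of 25 glycolysis and pentose phosphate genes 2 rose and 5 fell (0 and 2 without the block, and 8 falls after quantile normalization), with a median of 0.01 that was -0.05 with median scaling and -0.14 after quantile normalization. Slc2a3, a glucose transporter, fell by 1.02, but rose by 1.72 on another probe. Of 17 arginine and polyamine genes 3 rose (Arg1, Slc7a2 and the polyamine acetyltransferase Sat1, 0.99) and Ass1 fell (-0.74).

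Iron genes moved in both directions, 4 up and 4 down among 16 (2 and 1 without the block), with a median of 0.12 that was -0.06 after quantile normalization. Tfrc, the transferrin receptor, read 1.66, 0.69 and 1.61 at 18 h, against 0.20, -0.65 and 0.00 in mock, and rose by 1.47 ± 0.13 (adjusted p = 1.04e-05). Its partner Hfe rose by 1.32, and the phagosomal metal transporter Slc11a1 fell by 0.95. Named after their values were seen, the iron exporter Slc40a1 (-1.48) and ceruloplasmin Cp (-1.74) fell. Acod1, which makes itaconate, read -1.17, 0.62 and -0.001, against 3.37, 3.32 and 2.90 in mock, and fell by 3.38 ± 0.36 (adjusted p = 4.36e-05); the oxidase genes Nox1 (-3.38) and Cybb (-0.90) fell. Of 32 lysosomal genes 7 rose and 2 fell (Ctsc, -1.04, and Lipa, -0.65), with a median of 0.25. Without the block 1 rose and 1 fell, and 3 rose with median scaling or after quantile normalization.

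Some adhesion and fusion genes had large changes. Itgax, the CD11c integrin chain, read 4.38, 4.37 and 4.26 at 18 h, against 2.14, 2.29 and 1.68 in mock, and rose by 2.30 ± 0.18 (adjusted p = 2.30e-06, with a change of 1.30 by another probe). Atp6v0d2, a proton pump subunit needed for osteoclast fusion, read 1.68, 2.07 and 2.32, against -0.78, -1.32 and -1.32 in mock, and rose by 3.16 ± 0.23 (adjusted p = 1.61e-06). Neither overlapped between the groups. Of the 15 osteoclast and fusion genes 5 rose (2 without the block) and none fell, with a median of 0.26, among them Ocstamp (3.12, adjusted p = 0.0525 without the block, and 4.85 by another probe) and Itgb3 (3.17). Of 13 integrin genes, with a median of -0.02 that was 0.01 with normexp, 2 rose; Itgal (-1.996, and -1.11 by another probe) and Itga6 (-1.52) were among the 4 that fell. In the matrix list 6 of 18 rose and 5 fell (2 and 3 without the block): fibronectin Fn1 read 0.32, -2.51 and -0.88, against -4.13, -7.12 and -6.36 in mock, and rose by 4.85 ± 0.35 (2.86 by another probe). The membrane metalloproteinase Mmp14 read -2.27, -1.90 and -1.51, against 1.43, 1.35 and 1.02 in mock, and fell by 3.16 ± 0.27 (adjusted p = 5.94e-06).

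Cell division genes leaned downward. Of 34 mitosis genes 32 were lower and 6 fell, with a median of -0.44 (-0.10, -0.19 and -0.92 in pairs A, B and C). Ndc80, a kinetochore gene, read 0.41, -0.04 and -0.66 at 18 h, against 0.85, 0.51 and 0.37 in mock, overlapped and fell by 0.67 ± 0.19 (adjusted p = 0.0263). No mitosis gene fell without the block, 1 did with median scaling and 12 after quantile normalization. Leaving out the mock culture B or C, the 18 h culture C, letter B or letter C left 0 calls, letter A left 1, and mock culture A 2. None of 36 DNA replication genes was called by limma, with 29 lower and a median of -0.18. The cyclin gene Ccnd2 fell by 2.04 and the CDK inhibitor Cdkn1c fell by 1.92, the 2 calls among 13 CDK inhibitors and D cyclins. Of 25 ribosome biogenesis genes 4 rose (Npm1, Fbl, Nhp2 and Nop16), close to the 11.9% of all genes tested that rose. None rose without the block or with median scaling.

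Other large falls lay outside the lists. Ppm1n, of the metal-dependent phosphatase family, read -8.42, -7.84 and -8.26 at 18 h, against -3.65, -2.79 and -2.81 in mock. It was well above background on no 18 h array and was at least 11.6-fold lower (adjusted p = 9.84e-07). Dscam (well above background on 1 of 3 18 h arrays), an immunoglobulin-family adhesion gene, read -6.63, -5.72 and -6.94, against -2.68, -1.87 and -2.04 in mock, and fell by 4.23 ± 0.22 (adjusted p = 1.16e-07). Neither overlapped between the groups. Cmah, which makes a sialic acid, fell by 3.15, Trim30b fell by 3.15 and the prohormone convertase Pcsk1 fell by 3.13.

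Calls in the remaining lists were read against the 18.6% of all genes. The unfolded protein response had 1 rise among 24, Pdia4 (1.44), the glutathione and peroxide list 2 rises and 2 falls among 21, and the BCL2 and caspase list 1 rise, Casp6 (1.73), and 2 falls among 23. In the immediate early and heat shock list 4 of 15 rose. Without the block the glutathione list had no call, the BCL2 list 1 rise, and the immediate early list 2 rises. The medians of these lists, 0.08, 0.09, 0.04 and 0.20, were -0.05, -0.09, -0.11 and -0.08 after quantile normalization. Within the itaconate and oxidase list, 2 of 9 rose (Ncf4, 0.54, and Ido1, 1.65) and 2 fell, against 0 and 1 without the block.

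**Figure D3:**
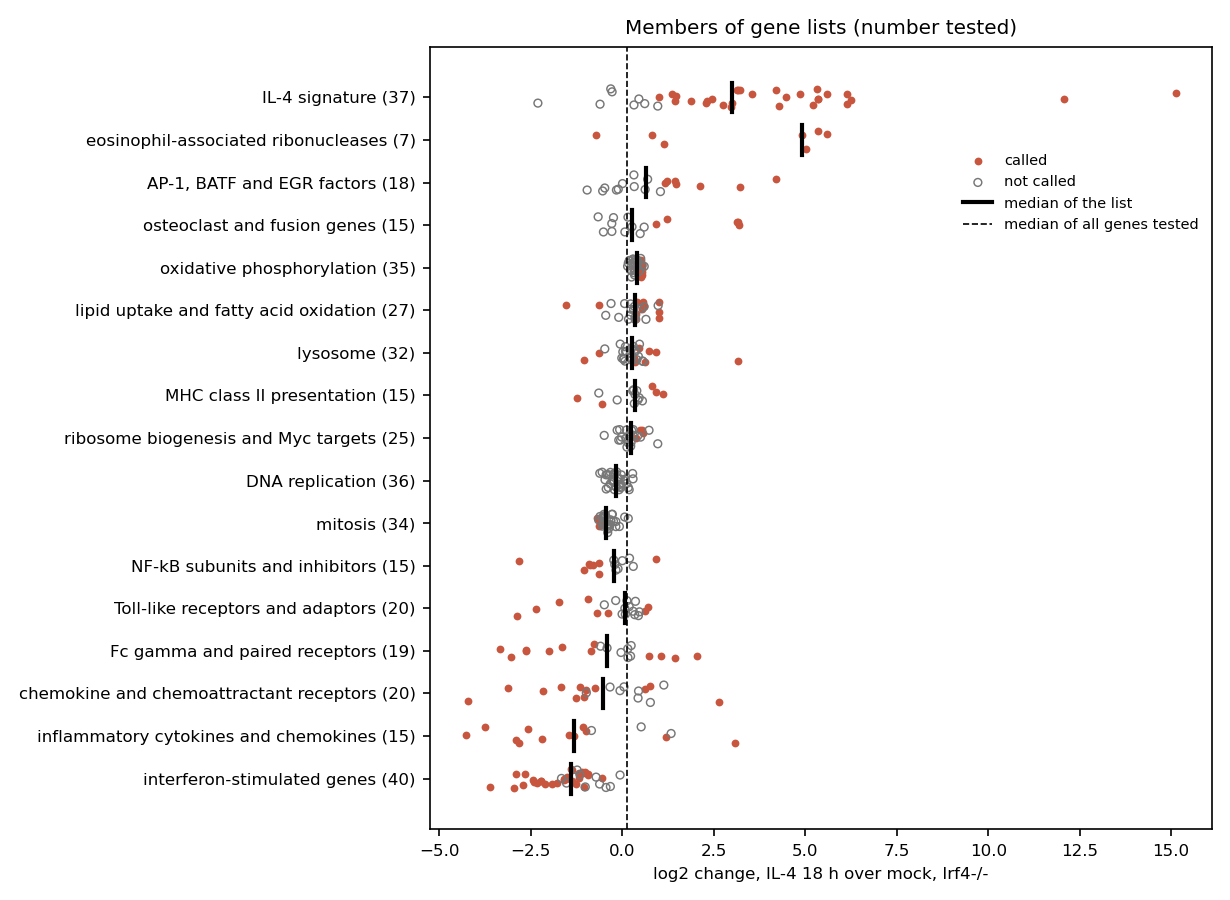
Each row is a gene list with its number of members tested, each point a member, the x axis its log2 change of IL-4 18 h over mock in Irf4-/- macrophages, with filled points for called genes, a bar for the list's median and a dashed line for the median of all genes tested, 0.12. The IL-4 signature and the ribonucleases lie to the right (medians 3.00 and 4.92) and the interferon-stimulated and inflammatory genes to the left (-1.39 and -1.32), while oxidative phosphorylation (0.40, and 0.22 after quantile normalization) is a narrow group near 0.

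Markers of macrophages and of other cells were read beside these lists. Of 10 macrophage markers 1 rose and 3 fell, Cd14, Fcgr1 and Mertk, and their summed linear signal (in units of the array's 75th percentile) was 551 to 1104 at 18 h, against 503 to 906 in mock. The summed dendritic cell markers were 53.1 to 147 at 18 h, against 96.4 to 185 in mock, with Flt3 up (0.88, but -0.025 with normexp) and Clec9a down (at least 2.38-fold, adjusted p = 0.01) among 8. Sums of T and NK (0.287 to 0.475, against 0.251 to 0.357), of basophil, mast cell and eosinophil (0.166 to 0.355, against 0.126 to 0.374), of erythroid (0.393 to 0.626, against 0.286 to 0.414) and of fibroblast markers (0.434 to 0.720, against 0.479 to 0.900) overlapped between 18 h and mock. B-lineage markers summed to 70.8 to 92.6, against 46.8 to 91.9 in mock, and neutrophil markers to 19.4 to 54.9, against 18.6 to 57.5. A linear sum mostly follows the brightest members of its list and does not measure a number of cells. Mean 18 h levels of members ran from -7.94 to 6.36 in the B-lineage list. They ran from -7.85 to 6.53 in the dendritic cell list, where Bst2 is also an interferon-stimulated gene, and from -5.64 to 4.31 in the neutrophil list. Of these lists, called members were Cd2 (1.18, but -0.021 with normexp), Cd3g (0.63, but -0.147 with normexp) and Lck (-0.77) of T and NK cells and Car2 (2.36) of the erythroid list, and none of the B-lineage, neutrophil, basophil or fibroblast lists. Only markers well above background on all 3 arrays of a group were tested, so the tested ones do not show that other cells were present. Markers that did not pass included 7 of 11 listed for basophils, mast cells and eosinophils and 4 of 9 for fibroblasts. The part of other cells in the results was not tested.

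To see what was late in this state, the 18 h cultures were set against the 4 h cultures of the same genotype. Relative to 4 h, 735 genes (4.81%) were higher at 18 h and 580 (3.79%) lower, 206 and 197 of them at least 2-fold. This comparison shares the 18 h arrays with the one against mock, so the levels are given side by side, as mock, 4 h and 18 h. Mock cultures were kept for 18 h and no mock culture of 4 h is used here, so time with IL-4 and time in culture cannot be told apart in what follows.

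One pattern was a peak at 4 h. Kalrn, a guanine nucleotide exchange factor, read -5.45, -6.81 and -6.46 in mock A, B and C, -2.58, -4.02 and -2.03 at 4 h and -6.07, -6.51 and -6.85 at 18 h: its 18 h levels overlapped mock (-0.24 ± 0.34, adjusted p = 0.656), and 18 h lay -3.60 from 4 h (adjusted p = 9.88e-05). Gata3, a transcription factor of type 2 lymphocytes, read -4.36, -8.25 and -7.81 in mock, 0.75, -3.34 and -0.80 at 4 h and -2.38, -6.95 and -4.46 at 18 h. The serpin Serpina3f read -5.22, -4.77 and -5.44 in mock, 0.53, -0.46 and 0.56 at 4 h and -3.28, -3.37 and -2.36 at 18 h. Both were lower at 18 h than at 4 h in every experiment yet above the mock of their letter. The 18 h minus 4 h changes were -3.47 for Gata3 and -3.21 for Serpina3f, and Wdr86 had the same course (-2.93). The Wnt antagonist Nkd2 read -8.33, -8.51 and -8.13 in mock, -4.29, -5.40 and -3.75 at 4 h and -6.999, -7.32 and -7.64 at 18 h, was well above background on no 18 h array and was at least 4.42-fold lower there than at 4 h (adjusted p = 0.00627). Kalrn was well above background on 1 of 3 18 h arrays, and Gata3 on 2 of 3. Lower at 18 h than at 4 h without such a peak were Dscam and Ppm1n, which lay below their mock at 4 h in each experiment. Dscam read -3.63, -3.11 and -3.12 at 4 h, with a later change of -3.14 and 1 of 3 18 h arrays well above background, and Ppm1n read -5.29, -4.96 and -4.90 at 4 h and was at least 2.97-fold lower at 18 h (adjusted p = 0.000232). Alox15 read -5.38, -6.29 and -5.07 in mock and -6.02, -3.27 and -5.38 at 4 h, uneven between experiments, and was at least 3.32-fold lower at 18 h than at 4 h (adjusted p = 0.0365). Il4ra, the receptor chain itself, peaked at 4 h: it read 2.34, 2.59 and 2.67 in mock, 3.54, 3.61 and 4.86 at 4 h and 1.70, 2.29 and 2.67 at 18 h, and changed by -1.79 ± 0.25 between 4 h and 18 h (adjusted p = 0.00115).

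A second pattern was a rise that came mostly after 4 h. Ear1 read -6.10, -7.34 and -6.30 in mock, -4.03, -7.10 and -5.60 at 4 h and 0.53, -2.89 and -2.34 at 18 h. Fibronectin Fn1 read -4.13, -7.12 and -6.36 in mock, -4.01, -5.71 and -4.42 at 4 h and 0.32, -2.51 and -0.88 at 18 h. Bex1 read -8.47, -7.51 and -8.34 in mock, -8.19, -7.45 and -7.42 at 4 h and -5.12, -3.46 and -3.78 at 18 h, and was not well above background on any mock or 4 h array (at least 5.91-fold up at 18 h against mock and 4.89-fold against 4 h). In each of these genes all 3 experiments rose more between 4 h and 18 h than before. The 18 h minus 4 h changes were 4.01 for Ear1, 3.69 for Fn1 and 3.64 for Rbp4 (adjusted p = 0.000855, 9.88e-05 and 0.00172). Other courses also ended higher at 18 h than at 4 h. Retnla read -8.35, -8.29 and -9.20 in mock, 3.62, 1.87 and 2.08 at 4 h and 7.30, 5.58 and 6.72 at 18 h, so most of its rise was present at 4 h and 4.01 was added (adjusted p = 9.88e-05). The Wnt receptor Fzd1 read -3.65, -5.09 and -5.10 in mock, -5.66, -6.32 and -6.67 at 4 h and -2.06, -3.001 and -2.52 at 18 h, below mock at 4 h and above it at 18 h, a later change of 3.69 (adjusted p = 0.00028). Itgax read 2.14, 2.29 and 1.68 in mock, 2.33, 2.88 and 2.04 at 4 h and 4.38, 4.37 and 4.26 at 18 h, with its 4 h levels within 1 log2 unit of mock and a later change of 1.92.

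The interferon-stimulated genes belonged to the late changes: their median was -0.23 at 4 h against mock and -1.18 from 4 h to 18 h, where 18 of 40 fell. Isg20 read 2.52, 3.46 and 2.68 in mock, 2.14, 3.10 and 2.52 at 4 h and -1.71, 1.36 and 0.16 at 18 h. The inflammatory list had its median of -1.39 already at 4 h. Nfkbiz read 0.72, 0.65 and 0.10 in mock, -3.49, -2.24 and -3.87 at 4 h and -2.25, -1.84 and -2.93 at 18 h, lowest at 4 h in each experiment. For the IL-4 signature the 4 h median was 2.04, and for the ribosome biogenesis list it was 0.80 with a change of -0.62 from 4 h to 18 h, where 12 of 25 fell.

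**Figure D4:**
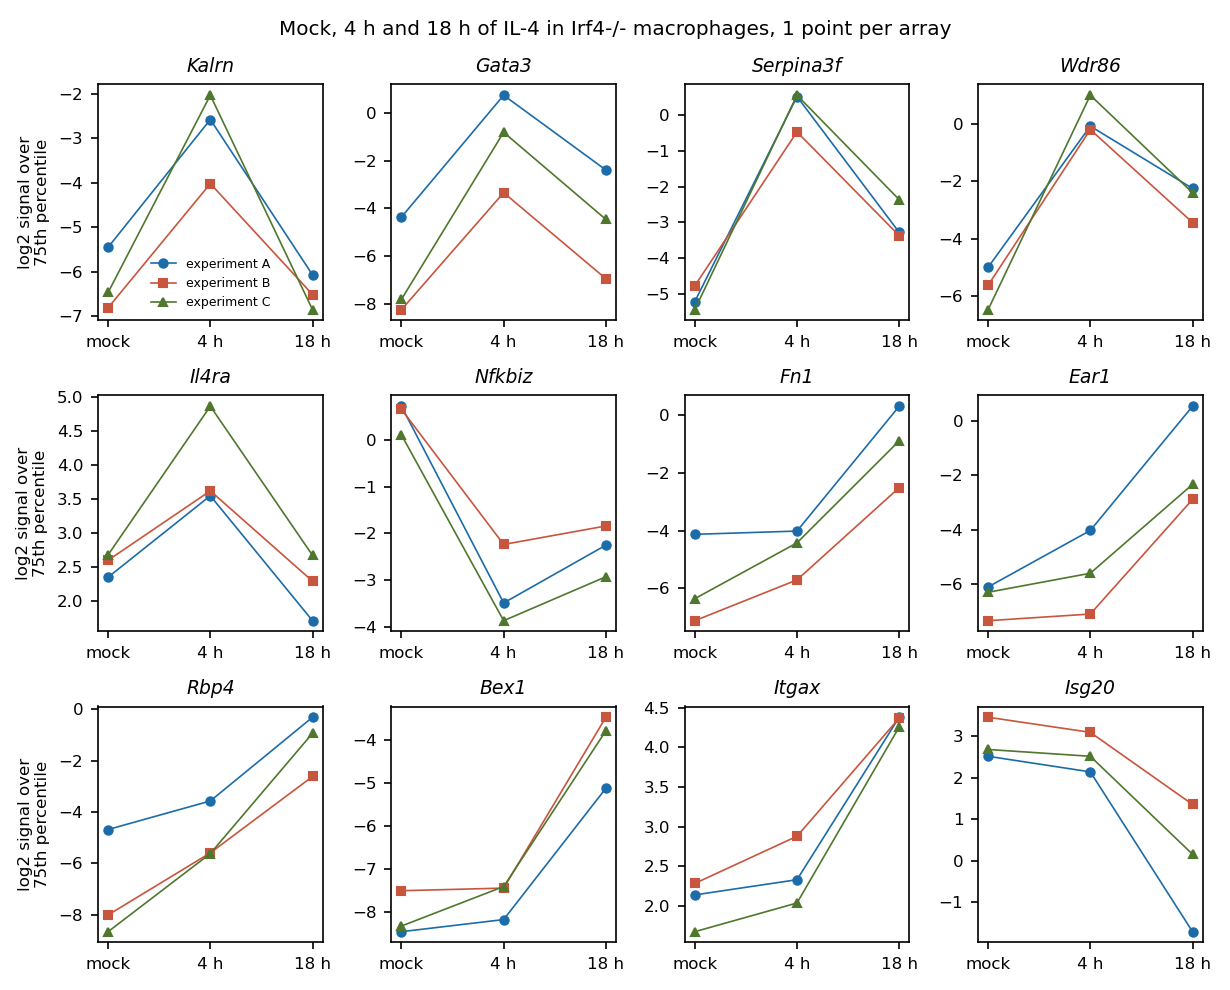
Each panel is 1 gene in Irf4-/- macrophages, with mock, 4 h and 18 h of IL-4 on the x axis and the log2 signal over the array's 75th percentile on the y axis; each line is 1 experiment. Kalrn, Gata3, Serpina3f, Wdr86 and Il4ra peak at 4 h, Nfkbiz is lowest at 4 h, Fn1, Ear1, Rbp4, Bex1 and Itgax are highest at 18 h, and Isg20 is lowest at 18 h.

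The 18 h response of the cultures labelled Irf4-/- was then set against that of Irf4+/-, which shares no array with it. The comparison of genotypes rests on the labels. No gene passed the test of the difference (0 of 15285, 0%, limma), with a lowest adjusted p of 0.455 and 652 genes at an unadjusted p under 0.05 (4.27%). The number of genes at an unadjusted p under 0.05 depended on the block. It was 1613 with the pool of cells as the block and 83 with no block. With the slide as a fixed or random block it was 1372 and 1230. In Irf4+/- 2399 genes (15.7%) were called, 1202 up and 1197 down. The genotypes shared 1811 calls, all with the same sign, which is 63.7% of the Irf4-/- calls and 75.5% of the Irf4+/- calls. Of the 1034 genes called in Irf4-/- and not in Irf4+/-, 895 had the same sign in Irf4+/-, as did 928 of the 942 genes called with at least 2-fold change. Across genes, which are not independent, the changes correlated with r = 0.877. The 95% interval of the difference reached a median of 0.53 to either side, and 0.82 for the 2-fold genes, without adjustment over genes. These widths are no detection limit: larger differences also went uncalled, such as those of Cx3cr1 and Rnase2a below. Differences between genotypes can therefore have been missed with 3 arrays a group.

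The list medians in Irf4-/- and Irf4+/- were 3.00 and 3.12 for the IL-4 signature, -1.39 and -1.52 for interferon-stimulated genes and -1.32 and -1.64 for inflammatory genes. For the genes that follow the interval of the difference included 0. Mgl2 rose by 6.13 in cultures labelled Irf4-/- and by 6.78 in Irf4+/- ones, which differ by -0.65 (-1.36 to 0.07, 95% interval). Mrc1 rose by 1.87 and 1.59 (-0.22 to 0.78), Chil3 by 2.96 and 3.36 (-1.77 to 0.97), and Cxcl10 fell by 4.28 in Irf4-/- and fell by 4.66 in Irf4+/- (-1.18 to 1.93). Retnla read 7.30, 5.58 and 6.72 in Irf4-/- at 18 h and 8.02, 6.52 and 6.89 in Irf4+/-.

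Of the 203 named genes tested, 13 had a 95% interval of the difference that left out 0 (6.4%), and none was called. Tfrc rose by 1.47 in Irf4-/- and by 2.42 in Irf4+/- (difference -0.95, interval -1.36 to -0.54, adjusted p = 0.542). Cx3cr1 fell by 4.23 in Irf4-/- and fell by 6.09 in Irf4+/- (difference 1.86, interval 0.93 to 2.79, adjusted p = 0.785). Rnase2a rose by 5.60 and 8.29 (difference -2.69, interval -5.01 to -0.36), and Ciita by 0.81 and 1.67 (difference -0.86, interval -1.56 to -0.15). For these 4 genes the change was smaller in Irf4-/-, without passing the adjustment. Among the others were Pilrb1, Pilrb2, Irf5, H2-DMa, Cxcr3, Itgax, Matn2 and Mcpt4, with differences between -0.68 for H2-DMa and 1.19 for Mcpt4.

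**Figure D5:**
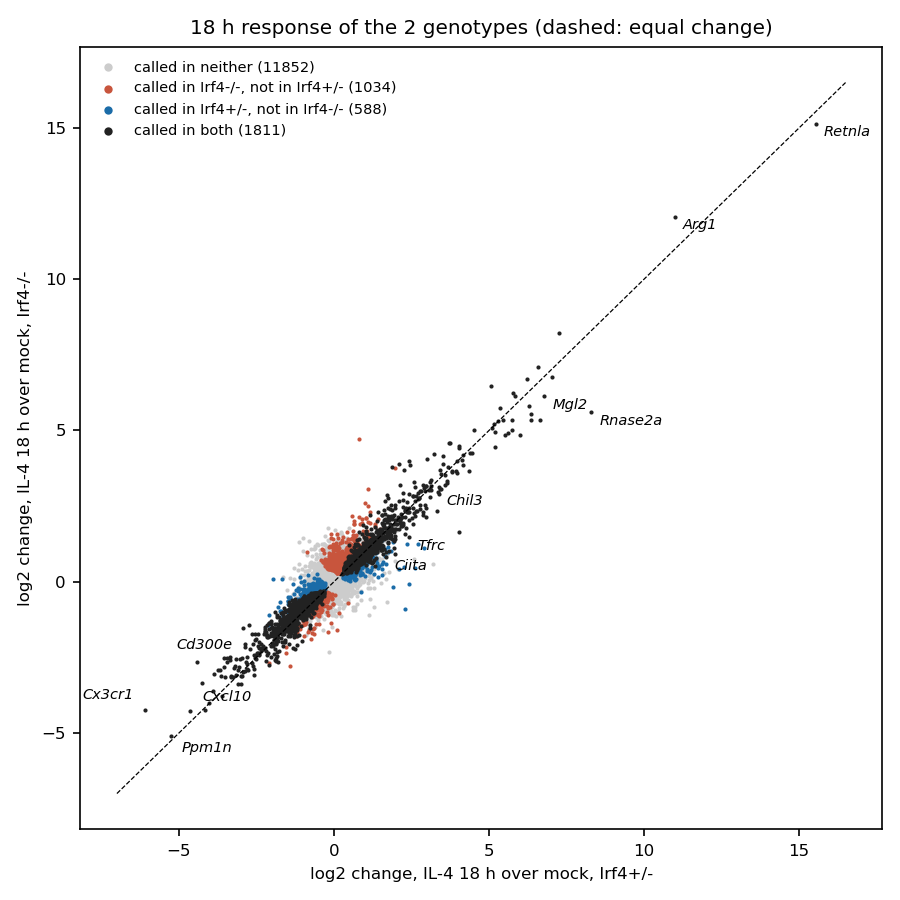
Each point is a gene, with its log2 change of IL-4 18 h over mock in Irf4-/- on the y axis and in Irf4+/- on the x axis; black points were called in both genotypes, red in Irf4-/- and not in Irf4+/-, blue the reverse, and the dashed line marks equal change. The 1811 genes called in both lie along the line, and Rnase2a, Cx3cr1 and Tfrc lie off it, although no difference was called.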

How the data were processed

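Macrophage RNA was hybridised to 18 one-colour (Cy3) arrays. The authors deposited scanner files of intensity values made with Agilent Feature Extraction 9.5.1, per the file headers and the submitters' processing notes; their processed signal is already background-subtracted. The authors also deposited a table of log2 values; it matched, as deposited, each array's log2 signal minus the signal of the same letter's mock culture of Irf4+/- (lowest r 0.99995 over 23690 bright probes), and served as an alternative. How it was scaled is known only from this match.

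For the main results log2 processed signal minus the array's 75th percentile was used, without control spots, with spots of a probe averaged. Of 41174 probes 6994 stayed unnamed; 22951 were named by accession through RefSeq, the others by symbol, synonym or the file's name. A probe was kept if well above background on all 3 arrays of a group, and the brightest kept probe stood for its gene. Over all 18 arrays limma 3.58.1 (R 4.3.3) was fitted with group and letter, with Benjamini-Hochberg adjustment over 15285 genes. Letters pair the arrays by design (independent experiments with littermates), and the deviations of 18 h and mock arrays correlated at 0.79, 0.633 and 0.635 in A, B and C. The fit was also run on data simulated with independent noise and a letter effect shared by both genotypes, as the fit assumes. In the measured data arrays of a slide stayed correlated after the letter block (consensus correlation 0.507). The simulation held no such correlation, so it could not show its effect on the calls.

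Members, gene lists and tests were chosen with earlier results of these data known. The genes named are the 15 largest rises and falls called with 1 sign in all pairs, the 8 largest each way between 4 h and 18 h and (none called) between genotypes, up to 4 members of each list with the lowest adjusted p, and a fixed set of 21 genes, Irf4 and the activation markers among them; others are said to be named after their values were seen. Alternatives were other scalings, background corrections, filters, blocks and left-out arrays. Separate cultures stand behind each letter; no interval here covers variation between animals, which were pooled. Some named genes are not reported here.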

Additional observations from a re-analysis of the deposited data

Results flagged for a closer look

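Of the 203 named genes tested, 3, all markers of other cell types, moved one way in every Irf4-/- pair and the other way in every Irf4+/- pair (1.48%). Of all 15285 genes tested 297 had such a pattern (1.94%). Fcer1a, the IgE receptor alpha chain, changed by 0.39 in Irf4-/- (pairs A, B and C 0.262, 0.611 and 0.298) and by -0.108 in Irf4+/- (-0.184, -0.049 and -0.091). The mast cell protease Mcpt4 changed by 0.554 in Irf4-/- (0.732, 0.448 and 0.483) and by -0.633 in Irf4+/- (-0.146, -0.235 and -1.518), and by 1.201 in Irf4-/- by another probe. The globin Hba-a1 changed by 0.352 in Irf4-/- (0.673, 0.158 and 0.224) and by -0.142 in Irf4+/- (-0.041, -0.178 and -0.206), and by 0.556 in Irf4-/- by another probe. None of the 3 differences between genotypes passed limma's test over all genes (adjusted p = 1 for each, unadjusted p = 0.143, 0.0291 and 0.0784).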

How the results depend on the processing

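For 18 h against mock in Irf4-/-, 2845 genes were called in the paired fit and 552 without the replicate block; 5632 were called with the pool of cells as the block, 421 with normexp background correction and 4473 with the slide as a random block. Without single arrays or letters it was 928 to 2886: 928, 1142 and 1853 without letters C, B and A, 1501 without the 18 h array C and 1817 without the mock array A. Against 4 h, 1315 genes were called, 87 with no replicate block, 3170 with the pool as the block, 773 with median scaling, 112 with normexp, 818 with no filter on dim probes, 3106 and 2775 with the slide as a random or fixed block, and 144 to 896 without single arrays or letters (144, 297 and 519 without C, B and A; 606, 819 and 645 without the 4 h arrays A, B and C; 882, 896 and 562 without the 18 h arrays). In Irf4+/-, 2399 were called, 643 with no replicate block, 4183 with the pool as the block, 801 with normexp and 1029 to 2136 without single arrays or letters (1422, 1298 and 1029 without A, B and C). The test between genotypes called 0 genes under every alternative run. With normexp the IL-4 signature's median was 2.444, and that of oxidative phosphorylation was 0.481 (0.219 after quantile normalization, 0.310 to 0.455 without single arrays or letters). Changes reversed for Slc2a3 with the mean of its probes (0.346) and with normexp for Slc7a11 (-0.053), Flt3 (-0.025), Cd2 (-0.021) and Cd3g (-0.147); the cause was not tested. Of 163 named results called, 73 were lost without the block, 95 with normexp, 22 with median scaling, 15 with quantile normalization and 51 without letter C. None was lost with the pool as the block or the slide as a random block. None was lost with the deposited log2 table either, but this is no separate check. That table subtracts the same letter's Irf4+/- mock from the same signal, and the letter block takes up this offset. Normexp without spots far below background and the slide as a fixed block were chosen after seeing the data. With the former, 2799 genes were called for 18 h against mock in Irf4-/-. Of the named results called, 13 were then lost and none was reversed. Signal over background limits folds to bounds for genes that no array of 1 group measured well above it.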

Other observations

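Some genes outside the gene lists had a low p of the difference between genotypes, though not the lowest of all genes tested. List members such as Tfrc and Cx3cr1 had adjusted p in the same range. The genes below are named after their values were seen, and none passed the adjustment. Ttc24 read -3.01 and -4.66 in Irf4-/- IL-4 18 h cultures B and C, with no value in A, against -6.95, -8.46 and -9.33 in Irf4-/- mock. In Irf4+/- it read -6.82 and -7.34 at 18 h in B and C, against -6.90, -6.57 and -9.29 in mock. The mock levels of Ttc24 and its 18 h levels in Irf4+/- lay near levels at which other genes were not well above background. The size of its changes is therefore uncertain, and its 18 h values rest on letters B and C alone. Cyp1b1, a cytochrome P450, read -4.73, -4.81 and -3.33 at 18 h in Irf4-/-, against -5.12, -6.50 and -6.15 in mock, and -2.51, -1.65 and -1.62 at 18 h in Irf4+/-, against -5.08, -6.64 and -6.21 in mock. Sema6d, a semaphorin, read -2.63, -2.39 and -3.28 at 18 h in Irf4-/-, against -2.49, -3.51 and -3.80 in mock, and -0.38, -0.90 and -1.49 at 18 h in Irf4+/-, against -2.70, -3.14 and -3.73 in mock. The adjusted p of the difference, by limma, was 0.542 for Ttc24, 0.789 for Cyp1b1 and 0.509 for Sema6d.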
